A study of Mus musculus with 18 samples.

Results

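This report concerns 134 probes of a mouse array that read lower after withdrawal of leukaemia inhibitory factor (LIF) in 2 embryonic stem cell lines and at nearly the same level in Oct4 VP2, a line that carries Oct4 joined to the VP16 activation domain. They were chosen from the 25030 probes of the authors' value table by 3 limits on the change from 24 h with LIF to 120 h without it, each change taken between means of 2 arrays. The change had to be -2 or lower on the log2 scale in the ZHBTc4 line and in the Oct4 line, and between -0.5 and 0.5 in the Oct4 VP2 line. In all, 412 probes met both limits on the fall, and of these 233 lay below the limit in Oct4 VP2 and 45 above it. Because the values at 24 h and 120 h chose the probes, everything at those times is a description with no test. The arrays taken at 48 h had no part in the choice, and the lines were tested against each other there. They are not fully independent of the arrays that chose the probes, since same-numbered Oct4 VP2 arrays deviated alike across times.

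The study hybridised 18 arrays, each with the RNA of an embryonic stem cell culture (strain 129/Ola) labelled with Cy3, against a reference pool of mouse cell line RNA labelled with Cy5. All cultures trace back to ZHBTc4, a line in which the oct4 gene is expressed from a transgene that tetracycline can switch off. ZHBTc4 cultures carry no further construct, and their labels name no tetracycline. The Oct4 VP2 cultures, and the Oct4 cultures without LIF, were grown with tetracycline to silence that transgene, electroporated with an oct4-vp16 or a moct4 construct that integrated at random, and kept under puromycin at 2 ug/ml. The Oct4 cultures with LIF are labelled as a knock-in, with no tetracycline or puromycin named, so every Oct4 change from 24 h also compares differently described cultures. Oct4 VP2 cultures were plated at 250000 cells and the others at 200000. RNA was taken 24 h after plating with LIF, or 48 h and 120 h after LIF was withdrawn, with 2 arrays in each of the 9 groups, which the series describes as independent clones. LIF and time since plating changed together in all lines.

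Oct4 is a transcription factor of the POU family that undifferentiated embryonic stem cells require. LIF is a cytokine that signals through STAT3 and holds mouse embryonic stem cells in self-renewal, and its removal lets them differentiate. VP16 is a herpesvirus protein whose activation domain strongly raises transcription when it is joined to a DNA-binding protein.

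No file used here gives a gene for a probe, and no genome or transcripts were used, so the transcripts are described by their probes. Neither the Oct4 transcript nor markers of stem cells or of differentiated cells could be followed, and the labelled cell type was not checked against them. In these bulk samples, fewer cells of a type and less RNA per cell cannot be told apart.

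Values are also given for 4 single probes, whose opening stretches are printed so that a reader can identify the transcripts. The first pair had the largest mean fall over ZHBTc4 and Oct4 in the value table, and the second pair the largest excess of Oct4 VP2 over Oct4 at 48 h, a pair chosen after its values were seen. Each line holds bases 1 to 30 of a probe of 60 bases, with no base marked. The genome position and strand of these probes were not determined here.
Z00045048-1: agcagttagaaacgcattatgcttgaaatg
Z00030154-1: acttcggtttgtttttggactgtgcatcat
Z00044113-1: agaagtgacattctcttggtggagtgaacc
Z00049222-1: tggcaagtttacagtggattttgagagaga

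Values below are log2 of sample over reference, corrected for background and normalised by loess, unless the value table is named. Set against each probe's mean over all arrays, the median of the 134 probes was 0.594 and 0.588 on the ZHBTc4 pair with LIF, -0.105 and 0.121 on the pair at 48 h, and -1.033 and -0.919 on the pair at 120 h. For Oct4, these values were 0.379 and 0.252, then -0.08 and 0.124, then -1.118 and -1.126. For Oct4 VP2, they were 0.11 and 0.23, then 0.759 and 0.547, then 0.097 and 0.103. On this scale the Oct4 VP2 arrays read lowest of the 3 lines with LIF and highest at 48 h and at 120 h, without overlap. The arrays with LIF and at 120 h chose the probes, by changes within a line and not by levels. The shift between lines from LIF to 120 h is thus largely built in, and the order at either time is only described. With LIF the margin was small, 0.23 against 0.252, and Oct4 VP2 was scanned in another session than the other lines.

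The probes were steady in Oct4 VP2 only between the end points. From 24 h to 48 h they were higher in 114 of 134 cases, with a median change of 0.369, and 17 were at least 2-fold higher. Of all 31727 probes tested, 14978 were higher over this interval and 383 at least 2-fold higher, with a median change of -0.015. In the value table, 111 were higher and the median change was 0.498. From 48 h to 120 h, 120 of the 134 were lower, with a median change of -0.454, and 12 were at least 2-fold lower, against 15828 lower and 319 at least 2-fold lower of all probes tested. The change from 24 h to 120 h had a median of -0.032. It ran from -0.85 to 0.712, beyond the limits of -0.5 and 0.5 that were set on the value table. The 2 Oct4 VP2 arrays differed by over 1 on the log2 scale in 8 of the probes at 48 h and in 8 at 120 h. Over the first interval the median change was -0.523 in ZHBTc4, where 107 probes were lower, and -0.228 in Oct4, where 92 were lower. In the second interval it was -0.987 in ZHBTc4, where 130 were lower, and -1.102 in Oct4, where 128 were lower. The larger part of the fall in both lines thus came after 48 h. Of all probes tested, 15997 in ZHBTc4 and 14174 in Oct4 were lower over the first interval, and 16404 and 15395 over the second.

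The pace differed among the probes. In ZHBTc4, 99 probes were at least 2-fold lower at 120 h than at 24 h, and 33 of them had reached 50% of that fall by 48 h, while 20 were still at or above their level with LIF. In Oct4, 87 probes were at least 2-fold lower, 21 had reached 50% of the fall and 24 were at or above the level with LIF. The median share of the fall seen at 48 h was 35.9% in ZHBTc4 and 18.1% in Oct4.

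At 48 h without LIF, far more of the probes were called higher than lower in Oct4 VP2 against Oct4. All 134 passed the filter on dim probes, and 42 were higher and 6 lower by limma's moderated test, where a call took a 2-fold difference and an adjusted p (Benjamini-Hochberg) under 0.05. That is 31.3% and 4.48% of the probes, against 3.3% called higher and 2.81% called lower among all 31727 probes tested. The median difference was 0.604, with quartiles of 0.013 and 1.196, against -0.012 over all probes tested, and the median standard error of a probe's difference was 0.194. The 42 probes called higher differed by 1.011 to 4.06, with a median of 1.507, and 10 of them differed at least 4-fold. In the Oct4 line, 16 of these 42 were already at least 2-fold below their level with LIF, against 517 of all 31727 probes tested.

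Against ZHBTc4 at 48 h, 47 probes were higher in Oct4 VP2 and 3 lower by the same limma test, 35.1% and 2.24%, against 3.22% and 2.67% of all probes tested. The median difference was 0.5, and 106 of the 134 probes were higher in Oct4 VP2. It was 0.794 from the Feature Extraction signals and from the value table, and 0.841 over the 76 probes well above background on all 18 arrays. Without replicate 1 of ZHBTc4 at 48 h, 29 were called higher and 6 lower. These comparisons share the Oct4 VP2 arrays. Oct4 and ZHBTc4 differed in few probes at 48 h. One probe was higher in Oct4 and 3 were lower, against 0.366% higher and 0.385% lower among all probes tested, and the median difference was 0.017. Without replicate 2 of Oct4 at 48 h, 2 probes were called, both lower in Oct4, and without replicate 2 of ZHBTc4 at 48 h there were also 2, both lower.

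The excess at 48 h was also seen in probes that were not steady in Oct4 VP2. Among the 233 probes that met both limits on the fall and also lay below the limit in Oct4 VP2, 98 were higher in Oct4 VP2 than in Oct4 at 48 h by the limma test, or 42.1%, and the median difference was 0.826. None (0) was called lower by limma, and 14 were lower at an unadjusted p under 0.05. Among the 45 that lay above the limit, 44 were tested, 10 were higher and 4 lower, and the median difference was 0.204. No test compared these sets.

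With LIF, most of the probes had a level in Oct4 VP2 near the mean of the other lines. In 111 of the 134 the Oct4 VP2 mean lay within 2-fold of the mean of the other lines. It was lower in 20, by -2.194 to -1.211, and higher in 3. With LIF, Oct4 minus ZHBTc4 ran from -3.051 to 1.307, so a probe's class need not hold against each line. At 120 h, the same 20 probes had a median difference of 0.798 between Oct4 VP2 and the other lines, with a range of -0.132 to 2.034, and in 18 of the 20 the Oct4 VP2 mean lay above the mean of the other lines. Of the 6 probes called lower in Oct4 VP2 than in Oct4 at 48 h, 5 belong to these 20. All 3 of the probes that were higher with LIF were called higher at 48 h against either line. Among the 111, 37 were called higher and 1 lower against Oct4.

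Across the 134 probes, Oct4 VP2 minus Oct4 had a median of -0.127 with LIF, 0.604 at 48 h and 1.176 at 120 h. Oct4 VP2 minus ZHBTc4 had medians of -0.29, 0.5 and 1.11 at these times. At 120 h, 129 of 134 probes were higher in Oct4 VP2 than in Oct4, and 129 than in ZHBTc4. The limits of the choice strongly favour this, although they bound changes and not levels. Oct4 minus ZHBTc4 had medians of -0.155, 0.017 and -0.06.

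Z00045048-1 changed late. Its log2 ratios in ZHBTc4 were 3.029 and 3.047 with LIF, then 2.502 and 2.553 at 48 h, then -0.144 and -0.573 at 120 h. In Oct4 they were 2.614 and 2.701, then 2.258 and 2.993, then -0.483 and -0.52. In Oct4 VP2 they were 2.53 and 2.309, then 3.004 and 2.908, then 2.469 and 2.526. The Oct4 VP2 and Oct4 arrays overlapped at 48 h, where Oct4 VP2 exceeded Oct4 by 0.331 (SE 0.191, limma adjusted p = 0.26), and stood far apart at 120 h.

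Z00030154-1 was not well above background on the 120 h arrays of ZHBTc4 and Oct4, so the size of its fall is not measured there. Its log2 ratios in ZHBTc4 were 2.436 and 2.407 with LIF, then 1.425 and 2.019 at 48 h, then 0.053 and 0.336 at 120 h. In Oct4 they were 1.585 and 1.574, then 1.096 and 1.921, then -0.119 and 0.09. In Oct4 VP2 they were 2.008 and 2.01, then 2.279 and 2.454, then 1.677 and 1.591. At 48 h both Oct4 VP2 arrays lay above both Oct4 arrays, by 0.858 on average (SE 0.228, limma adjusted p = 0.017), which is under 2-fold. With only the 6 arrays at 48 h in the fit, the limma adjusted p was 0.092. Without replicate 2 of Oct4 at 48 h the difference was 1.27 (limma adjusted p = 0.002), and from the Feature Extraction signals it was -0.11 (limma adjusted p = 0.94).

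Z00044113-1 was high in Oct4 VP2 at every time. Its log2 ratios in Oct4 VP2 were 2.206 and 2.398 with LIF, then 3.04 and 2.824 at 48 h, then 2.177 and 2.214 at 120 h. In Oct4 they were -1.462 and -1.065, then -1.162 and -1.094, then -2.059 and -2.144. In ZHBTc4 they were 1.222 and 1.273, then 0.425 and 0.933, then -1.042 and -0.178. The 3 lines did not overlap at any time, and the order Oct4 VP2, ZHBTc4, Oct4 was already present with LIF. At 48 h, Oct4 VP2 exceeded Oct4 by 4.06 (SE 0.234, limma adjusted p = 9.4e-07) and ZHBTc4 by 2.253 (SE 0.234, limma adjusted p = 4.3e-05).

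Z00049222-1 changed early. Its log2 ratios in Oct4 were 6.045 and 5.03 with LIF, then 1.547 and 1.819 at 48 h, then 1.854 and 1.502 at 120 h. In ZHBTc4 they were 5.064 and 4.973, then 2.284 and 2.993, then 2.06 and 2.841. In Oct4 VP2 they were 5.888 and 5.627, then 5.607 and 4.876, then 5.525 and 5.875. With LIF the Oct4 arrays overlapped those of each other line, and by 48 h both Oct4 VP2 arrays lay above all others, which were already near their 120 h level. At 48 h, Oct4 VP2 exceeded Oct4 by 3.559 (SE 0.355, limma adjusted p = 2.7e-05) and ZHBTc4 by 2.603 (SE 0.355, limma adjusted p = 0.00026).

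One of the 6 probes that were lower in Oct4 VP2 at 48 h shares a run of 26 bases with a pair of other probes on the array, and all of them followed the same course. The run is shown because probes that share sequence can bind the same transcripts and are not independent. Capitals mark the shared run in bases 31 to 60 of the probe.
Shared run: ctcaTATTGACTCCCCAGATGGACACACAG
In Oct4, this probe read 3.597 and 3.249 with LIF, then 4.355 and 4.703 at 48 h, then 0.847 and 0.93 at 120 h. In Oct4 VP2 it read 1.298 and 0.746, then 3.085 and 1.961, then 2.202 and 0.787, so both arrays at 48 h read higher than both with LIF, and the arrays of a pair differed widely. In ZHBTc4 it read 2.668 and 2.631, then 3.049 and 3.379, then -0.514 and -0.197. Its level was thus higher at 48 h than with LIF in all 3 lines. Oct4 VP2 lay below Oct4 at 48 h by -2.006 (SE 0.405, limma adjusted p = 0.0033), and the related probes differed by -2.056 and -2.133. Against ZHBTc4 the difference was -0.691 (SE 0.405, limma adjusted p = 0.25).

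In all, 13 of the 134 probes share an unbroken run of at least 20 bases with another probe, in 15 pairs, and the longest run is 53 bases. In 12 pairs the other probe was also tested, and in 11 of these both probes differed in the same direction between Oct4 VP2 and Oct4 at 48 h. For example, a member with a run of 50 bases differed by 1.633 and its partner by 1.625. A pair that shares 34 bases had opposite signs, 0.465 and -0.145. None of the 134 (0) shared a run of 15 bases with another of them, which does not make them independent. A member with a run of 24 bases and another with a run of 42 share these with the same other probe. At 48 h these members differed by 1.708 and 1.634 between Oct4 VP2 and Oct4, and that other probe by 1.399. The median GC content was 43.3% in the 134 probes and 43.3% in the value table. The letters AATAAA, the commonest polyadenylation signal, occurred on the probe's own strand in 14 of the 134 (10.4%) and in 7.9% of the table's probes, and the variant ATTAAA in 4 (2.99%) and in 3.37%. These matches only describe the letters.

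How large the falls were depended on signal. In the value table the median change at 120 h was -2.763 in ZHBTc4 and -2.717 in Oct4, against -1.822 and -1.551 after normexp and loess, and 27 of the 134 probes met the limits on the latter scale. Among the 76 probes well above background on all 18 arrays, the loess medians were -2.12 and -1.988. Among the 32 that were not well above background on either array of both lines at 120 h, they were -0.591 and -0.527, while the table gave -2.903 and -2.912. At 120 h, 42 probes were not well above background in ZHBTc4 and 40 in Oct4. The sizes of these falls are not measured, and no lower bound is given: one computed from the Cy3 channel exceeded the probe's own loess change in 11 of the 42 and in 21 of the 40. Of the 76 bright probes, 30 were called higher and 5 lower in Oct4 VP2 than in Oct4 at 48 h by the limma test, and 35 higher than in ZHBTc4.

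Values ran close to each limit on both sides, with no clear gap. The nearest values inside and outside were -2.0006 and -1.995 for ZHBTc4, and -2.0074 and -1.999 for Oct4. For Oct4 VP2 they were 0.4985 and 0.5126 at the upper limit, and -0.4978 and -0.5006 at the lower. Leaving out 1 Oct4 VP2 array kept between 85 and 96 of the 134 probes.

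The arrays lay on 5 slides scanned in 2 sessions. At 48 h, the Oct4 VP2 pair shared the first slide and the Oct4 pair the second, both in the first session, so slide and line cannot be told apart in that comparison. The Oct4 VP2 arrays were all in the first session, as were the Oct4 arrays without LIF. The Oct4 VP2 pair with LIF lay on the first slide and the pair at 120 h on the second. In that line, changes to 120 h thus cross slides, and the change from 24 h to 48 h does not. The arrays of ZHBTc4 and Oct4 with LIF were in the second, and ZHBTc4 had replicate 1 at 48 h and 120 h in the first and replicate 2 in the second. Every Oct4 change from 24 h thus crosses sessions and no Oct4 VP2 change does, so session and time cannot be told apart in Oct4. Within the second session, the median of the probes on the ZHBTc4 arrays changed by -0.436 from 24 h to 48 h. Both 48 h pairs of Oct4 VP2 and Oct4 lie in the first session. A fit within that session thus leaves their differences unchanged, with a median of 0.604, and is no check on session. The Cy5 channel, in which only the reference was read, gave 1 call among the 134 (0.746%) for Oct4 VP2 against Oct4, against 0.17% of all probes tested. Against ZHBTc4 it also gave 1 (0.746%), against 0.199% of all probes tested. The share of an array's probes well above background in Cy3 ran from 62.8% to 75.2%.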

How the data were processed

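Per the labels, each sample was labelled with Cy3 and the reference with Cy5. Per the file headers, Agilent Feature Extraction 9.5.1.1 gave the deposited intensity of each spot and a log10 ratio, reference over sample, whose sign was turned here. The deposited value table is on a log10 scale: after each probe was centred, 100% of its values matched the scanner's processed ratio (log10) to 0.001, which settles scale and direction, while each probe's constant is unknown. Its column medians lie between 2.33 and 2.36. For the choice of probes it was converted to log2.

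Mean signals were corrected with normexp (offset 50) on the background median and normalised by loess in limma 3.58.1 (R 4.3.3). Control and outlier-flagged spots had weight 0 and were left out, and repeated spots were averaged, leaving 42006 probes. A probe stayed if some group had it well above background (Cy3) on both its arrays, which left 31727. The model held a mean for each of the 9 groups over all 18 arrays (lmFit, then eBayes; 3.69 prior and 9 residual degrees of freedom). A call took a 2-fold difference and an adjusted p (Benjamini-Hochberg) under 0.05.

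Replicates are described as independent clones, and their number limits the precision. The probes, and the lists considered for them, were chosen with earlier results of these data known. The rule for single probes without a gene match was the 2 with the largest mean fall; a second pair, and the probe with a shared run, were chosen after their values were seen. Gene lists and markers were not analysed here, because none (0) of the probes was matched to a gene.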

Additional observations from a re-analysis of the deposited data

Results flagged for a closer look

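From 24 h to 48 h, the median of the 134 probes moved up on both Oct4 VP2 arrays, by 0.62 and 0.293, and down on both arrays of each other line, by -0.72 and -0.436 in ZHBTc4 and -0.451 and -0.293 in Oct4. The mean changes differed by 1.034 between Oct4 VP2 and ZHBTc4 and by 0.829 between Oct4 VP2 and Oct4. The difference was not tested, because the arrays at 24 h took part in choosing the probes. All Oct4 VP2 arrays and the Oct4 arrays at 48 h were scanned in the first session, and the 24 h arrays of ZHBTc4 and Oct4 in the second, so the contrast between lines runs along with session. Within the second session, ZHBTc4 gave -0.436 (replicate 2 at 48 h), and Oct4 has no value within a session.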

How the results depend on the processing

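The number of probes chosen depended on the scale and the limits: 46 met them on normexp and loess values, 258 with falls of at least 1.5 and 56 with an Oct4 VP2 change between -0.25 and 0.25. Leaving out 1 array at 24 h or 120 h gave 115 to 145. With all 134 probes followed, 42 to 49 were called at 48 h between Oct4 VP2 and Oct4 and 35 to 55 between Oct4 VP2 and ZHBTc4, over the settings tried. Leaving out 1 array gave 42 to 47 and 35 to 52. The calls over all 31727 probes were less steady than these counts. Against Oct4, the main fit called 1046 higher and 892 lower in Oct4 VP2, and the Feature Extraction signals 1621 and 1601. Against ZHBTc4 the main fit called 1022 and 846, and the Feature Extraction signals 1904 and 1522. Among the 27 probes that also met the limits on loess values, 15, 18 and 2 were called for Oct4 VP2 against Oct4, Oct4 VP2 against ZHBTc4 and Oct4 against ZHBTc4. For Oct4 against ZHBTc4 the main count of 4 became 2 with slide as a random block, 1 with only the 6 arrays at 48 h and 2 within the first session, and 2 to 3 without 1 array. Replicate numbers did not pair the lines at 48 h: deviations of same-numbered arrays correlated across probes with r between -0.09 and 0.059. Within lines across times, deviations of same-numbered arrays correlated over all probes in Oct4 VP2 (r = 0.52, 0.291 and 0.495). They did so between 48 h and 120 h in ZHBTc4 (r = 0.703), where number and session coincide. The lines are tested only at 48 h, but the spread comes from all 18 arrays, so these correlations can affect the p values. With only the 6 arrays at 48 h, the limma adjusted p against Oct4 was 0.00027 for Z00044113-1, 0.00082 for Z00049222-1 and 0.092 for Z00030154-1. The replicate block gave 49, 50 and 4 calls, but it is shared by all lines and does not model a correlation within 1 line. Z00030154-1 turned to -0.11 against Oct4 from both the Feature Extraction signals and the value table, and to -0.149 and -0.148 against ZHBTc4. For Oct4 against ZHBTc4 it turned to 0.005 with session as a block, to 0.083 within the first session, and ran from -0.626 to 0.199 without 1 array (0.199 without Oct4 replicate 1, 0.083 without ZHBTc4 replicate 2). Without 1 array, Z00045048-1 ran from -0.036 (without Oct4 replicate 1) to 0.698 against Oct4, and from -0.269 (without Oct4 replicate 2) to 0.465 for Oct4 against ZHBTc4. None of these turned values was past the threshold, and the cause was not tested. The settings within the first session and on bright probes were chosen after seeing the data.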
